A study of Homo sapiens with 6 samples.

Results

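The genes described here encode the subunits of the oxidative phosphorylation machinery, from the mitochondrial chromosome and from the nucleus. They were chosen by gene name: every protein-coding MT-ND, MT-CO, MT-CYB and MT-ATP gene, the numbered NDUFA, NDUFB, NDUFC, NDUFS and NDUFV genes, SDHA to SDHD, CYC1 and the UQCR genes, the COX4 to COX8 subunit genes, and the ATP5F1, ATP5M and ATP5P genes, without pseudogenes and where the 6 libraries averaged at least 1. This gave 94 genes of 27394 in the table, of which 22189 reached the same mean and were tested. Of the 94, 13 were mitochondria-encoded and 81 nuclear, with 37 nuclear genes named for complex I, 4 for complex II, 10 for complex III, 13 for complex IV and 17 for complex V. Another 2 names met the rule but lay below the mean, ATP5MGL at 0.337 and COX8C at 0.313, each seen in 1 library, while the lowest genes inside it, NDUFA7 and COX7A1, reached up to 14.1 and 13.5 in a library.

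The study asked what ZDHHC20, an enzyme that attaches palmitate to cysteines of other proteins, does in pancreatic cancer cells. RNA was sequenced from PANC-1, a line from a human pancreatic ductal carcinoma, with 3 libraries from cells carrying a short hairpin RNA against ZDHHC20 (shZDHHC20) and 3 from control cells (shControl). All 6 came from the same line in the same medium, and the labels name 1 infection or transfection treatment for both groups. Which of the study's hairpins was used, and whether the replicates were separate cultures, was not given in the sources used here, so p-values measure only the spread between these libraries, which may be technical.

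As background, the respiratory chain passes electrons from NADH through complex I and from succinate through complex II to ubiquinone, on through complex III and cytochrome c to complex IV, which reduces oxygen, while complex V uses the resulting proton gradient to make ATP. All complexes but complex II hold subunits from both genomes. The mitochondrial subunits are transcribed inside the organelle as long polycistronic RNAs that are cut into single messages, whereas the nuclear subunits are made in the cytosol and imported. The core subunits carry out electron or proton transfer and the smaller accessory subunits surround them and serve assembly and stability.

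Each library's gene counts had been scaled by a size factor of its own and are given below as normalized counts, and the reads recovered from them came to between 16575546 and 18441049 per library. ZDHHC20 itself was at 2001, 2033 and 1940.4 in the shControl libraries and 872, 779 and 893 in the shZDHHC20 libraries, with a log2 fold change of -1.23 ± 0.065 SE, adjusted p = 4.36e-07 in limma, and every shZDHHC20 library lay below every control. The shZDHHC20 replicate 2 library stood apart from its group: over 4136 genes averaging 1000 or more, the SD of its log2 differences to replicates 1 and 3 was 0.178 and 0.198, against 0.0674 to 0.0722 between the other libraries of a group. Where leaving it out moved a gene named below across the threshold, both values are given. Of the keratins listed for ductal carcinoma cells, KRT8 was between 50364 and 56688, KRT18 and KRT19 were at 5771 or above and KRT7 was between 63.6 and 122. Those listed markers of acinar, endocrine, leukocyte, endothelial and fibroblast cells that had values were at 8.66 or below. The others, among them CPA1, INS, CD3E, PECAM1 and DCN, had no values. In bulk RNA, fewer cells of a type and less RNA per cell cannot be told apart.

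Summed over genes, the mitochondria-encoded subunits overlapped between the groups, and replicate 2 of shZDHHC20 set most of the spread within its group. The 13 mitochondrial messages made up 4.28%, 4.35% and 4.25% of all normalized counts in the shControl libraries and 4.33%, 3.24% and 4.49% in the shZDHHC20 libraries. Replicate 1 lay within the range of the controls, replicate 3 above it and replicate 2 below it. The 81 nuclear subunits together made up 0.802%, 0.808% and 0.801% in shControl and 0.785%, 0.864% and 0.784% in shZDHHC20. Here the order was turned: replicate 2 was the highest of the 6 libraries and replicates 1 and 3 were the lowest. The ratio of the mitochondrial to the nuclear sum was 5.33, 5.38 and 5.30 in shControl and 5.52, 3.75 and 5.72 in shZDHHC20. Its mean was 5.34 ± 0.0397 (SD, n = 3) against 5.00 ± 1.09, and without replicate 2 the shZDHHC20 mean was 5.62, above all 3 controls. The reads recovered from replicate 2, 18190433, lay within the range of the other libraries, and the cause of its difference was not tested.

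The same split ran through nearly every mitochondrial gene. In replicate 2 of shZDHHC20, 12 of the 13 stood at 63.0% to 92.4% of the mean of replicates 1 and 3, with MT-CO3, a core subunit of complex IV, lowest and MT-ND3 of complex I highest. Among the nuclear subunits with a mean of at least 100, 54 of 76 were instead above the mean of replicates 1 and 3 there, with a median of 108% against 98.0% over all 10908 genes at that level.

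Across the 13 mitochondrial genes 2 passed the test and both were lower with ZDHHC20 silenced. That is 15.4%, beside 11.5% of all genes and 21.7% of genes averaging 100 or more, a level that all 13 reached. MT-ATP6, the proton-channel subunit a of complex V, was at 32604, 33538 and 32409 in the shControl libraries and 26984, 18649 and 26924 in the shZDHHC20 libraries. All 3 shZDHHC20 libraries lay below all controls, and replicates 1 and 3 on their own stood at 82.1% of the control mean. In limma it had a log2 fold change of -0.46 ± 0.10 SE, adjusted p = 0.0116, and without replicate 2 it was -0.29 with an adjusted p of 2.52e-06. MT-ND3, a small membrane subunit of complex I, was at 14904, 16228 and 15797 in the shControl libraries and 13692, 12728 and 13847 in the shZDHHC20 libraries. It too was below every control in all 3 libraries, with a log2 fold change of -0.22 ± 0.048 SE, adjusted p = 0.00929 in limma, and -0.18 with an adjusted p of 0.00166 without replicate 2. Leaving out 1 library ended the MT-ATP6 call, up to an adjusted p of 0.101, and the MT-ND3 call, up to 0.0938.

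In most of the remaining mitochondrial genes the size of the fold change depended on replicate 2. MT-CYB, the cytochrome b of complex III, was at 42697, 42869.8 and 41869 in the shControl libraries and 39357, 25771 and 40857 in the shZDHHC20 libraries, below the controls throughout, with a log2 fold change of -0.30 ± 0.12 SE, adjusted p = 0.159 in limma. Without replicate 2 it was -0.083 with an adjusted p of 0.011. MT-ND1 and MT-ND6, both of complex I, were also lower in all 3 shZDHHC20 libraries than in any control, at log2 fold changes of -0.24 and -0.17 that missed the threshold with adjusted p values of 0.197 and 0.196 in limma. For MT-ND2, MT-ND4, MT-CO2 and MT-CO3 the groups overlapped, and replicates 1 and 3 averaged 98.2% to 101% of the control mean.

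A further group of genes lay above the controls in replicates 1 and 3 and below them in replicate 2. MT-ND4L was at 19503, 20298 and 20590.1 in the shControl libraries and 22298, 16522 and 23182 in the shZDHHC20 libraries. MT-ND5 was at 61315, 62384 and 58639 in the shControl libraries and 64166, 46481 and 67536 in the shZDHHC20 libraries. With all 6 libraries their log2 fold changes were 0.022 and -0.052, and without replicate 2 they were 0.18 with an adjusted p of 6.33e-04 for MT-ND4L and 0.12 with an adjusted p of 0.00975 for MT-ND5 in limma. MT-CO1, the catalytic subunit of complex IV and the most abundant member, went the same way, at 249252, 246620.0 and 244381 in the shControl libraries and 252192, 189674 and 271372 in the shZDHHC20 libraries. Its log2 fold change was -0.070 with all libraries and 0.084 with an adjusted p of 0.0256 without replicate 2 in limma. The mitochondrial genes therefore did not share 1 direction in replicates 1 and 3: MT-ATP6 was at 82.1% and MT-ND4L at 113% of the control mean in the same 2 libraries.

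MT-ATP8, a short subunit of complex V, was the exception in replicate 2. It was at 116, 113 and 78.1 in the shControl libraries and 99.6, 467 and 64.5 in the shZDHHC20 libraries, so that replicate 2 held 569% of the mean of replicates 1 and 3 while the other 2 lay within or below the range of the controls. The log2 fold change was 0.51 ± 0.50 SE and turned to -0.33 without that library, with adjusted p values of 0.591 and 0.382 in limma. MT-ATP8 and MT-ATP6 are read from 1 message and their coding regions overlap by 46 bases, which is 22.2% of the 207 bases of MT-ATP8. The shared stretch is shown because reads that cover it belong to both genes, with the start codon of MT-ATP6 at its first base. In GRCh38 with GENCODE 29 it lies at chrM:8527-8572 on the + strand.

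MT-ATP8 and MT-ATP6 overlap: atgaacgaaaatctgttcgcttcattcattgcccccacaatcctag

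MT-ATP8 stood at 496 ± 103 normalized counts per kilobase in shControl against 48238 ± 887 for MT-ATP6 (SD, n = 3). How the counting dealt with reads of both genes is not given in the sources used here. MT-ND4L and MT-ND4 overlap in the same way by 7 bases. Nuclear pseudogene copies of mitochondrial genes can also share reads: MTATP6P1 was at 3344 ± 202 in shControl and 2422 ± 1159 in shZDHHC20 (SD, n = 3), MTND2P28 at 2237 ± 97.0 in shControl and 2026 ± 120.4 in shZDHHC20 and MTCO1P12 at 559.8 ± 49.9 in shControl and 421 ± 6.52 in shZDHHC20. MTCO1P12 was apart between the groups with a log2 fold change of -0.41 ± 0.083 SE, adjusted p = 0.00615 in limma, and the log2 fold change of MTATP6P1 went from -0.62 to -0.11 without replicate 2.

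**Figure D1:**
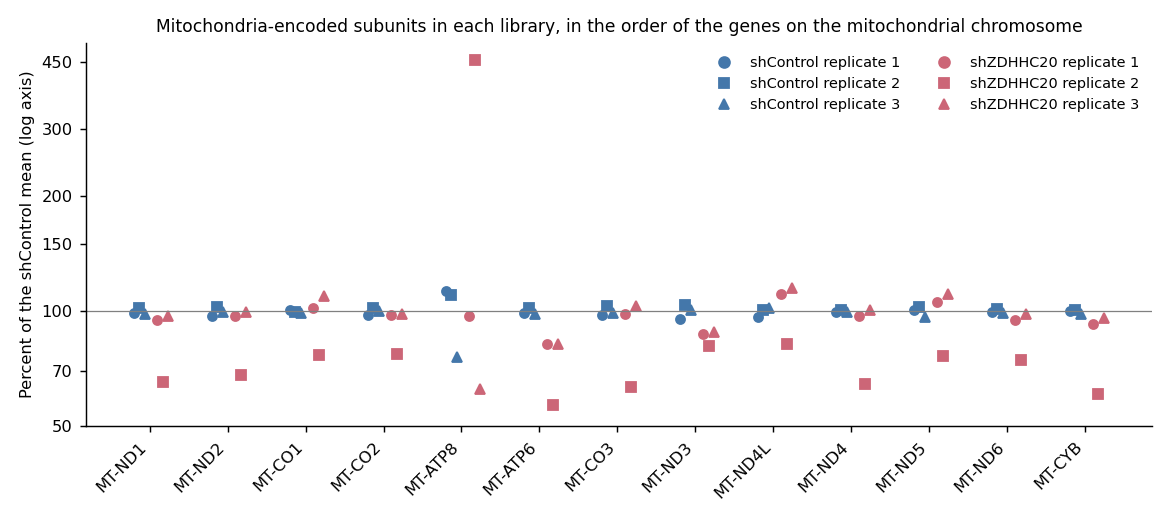
Each mitochondria-encoded subunit in each library as a percent of its shControl mean, on a log axis, with genes in their order on the mitochondrial chromosome, blue for shControl, red for shZDHHC20 and shapes for replicate numbers. In 12 genes the shZDHHC20 replicate 2 square is the lowest of its group and in MT-ATP8 it is the highest, at 455% of the control mean.

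The other RNAs of the mitochondrial chromosome were compared for reference. Of 22 mitochondrial rRNA and tRNA genes none passed upward and 1 downward in limma, the tyrosine tRNA gene MT-TY at -0.62. The 12S rRNA gene MT-RNR1 was at 16782 ± 1763 in shControl and 19249.5 ± 897 in shZDHHC20 and the 16S rRNA gene MT-RNR2 at 160029 ± 3591 in shControl and 132278 ± 25682 in shZDHHC20 (SD, n = 3), with adjusted p values of 0.064 and 0.0857. Without replicate 2 they passed in opposite directions in limma, MT-RNR1 at 0.23 with an adjusted p of 0.0297 and MT-RNR2 at -0.13 with an adjusted p of 0.0056, and edgeR with all libraries gave MT-RNR1 an adjusted p of 0.0409. In replicate 2 MT-RNR2 stood at 70.4% of replicates 1 and 3 and MT-RNR1 at 94.9%.

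Over all 94 subunit genes, 15 differed between the groups at an adjusted p under 0.05 in limma, 4 higher and 11 lower with ZDHHC20 silenced. That was 16.0% of the members, beside 11.5% of all genes tested. Upward calls made up 4.26% of the members against 4.61% of all genes, and downward calls 11.7% against 6.84%. Most members are abundant, and among genes averaging 100 or more the share of members called was 16.9%, beside 21.7% of all genes at that level. The median log2 fold change was -0.049 over the members and 0.013 over all genes, and 79 of the 94 lay within 0.25 of 0 on the log2 scale. At the study's own criteria of a p under 0.01, read here as unadjusted, and a fold of at least 1.5, 1 member passed, COX7A2L, which is 1.06% beside 2.45% of all genes. The 3 shControl and 3 shZDHHC20 values did not overlap for 30 of the 94, or 31.9%, beside 28.6% of all genes. An exact permutation test over 3 against 3 libraries cannot go below a two-sided p of 0.1.

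Without shZDHHC20 replicate 2, 35 members passed, 9 higher and 26 lower, and all 15 of the first set were among them. The 35 are 37.2% of the members, beside 19.2% of all genes in that fit, a share not matched for level. Without shControl replicate 1, 2 or 3, 4, 6 and 4 members passed, and without shZDHHC20 replicate 1 or 3, 6 and 8 passed. Over all genes the same fits called 1036, 1167 and 1042, and 1257 and 1781, against 2541 with all libraries. COX7A2L and ATP5MC1 passed whichever library was left out, while the other 13 failed without at least 1. The quasi-likelihood test of edgeR on recovered reads called 16 members, with all 15 of the limma calls among them.

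**Figure D2:**
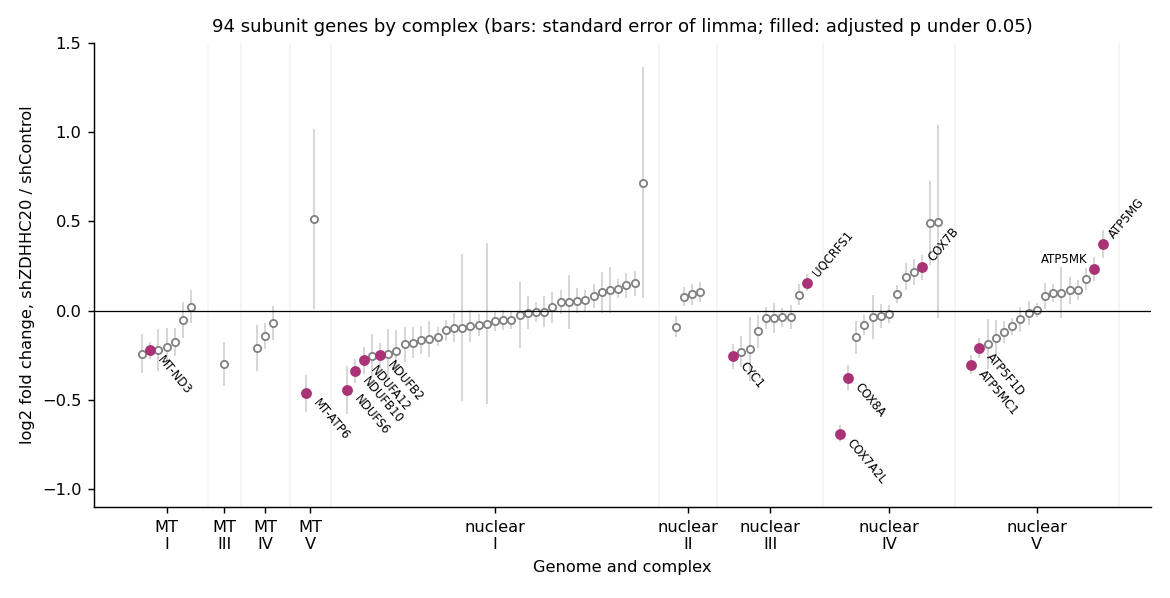
The log2 fold change of shZDHHC20 over shControl for each of the 94 subunit genes, sorted within genome (MT for mitochondrial) and complex, with bars for the SE from limma and filled points for the 15 genes with an adjusted p under 0.05. Most points lie within 0.25 of 0, and COX7A2L of complex IV is the lowest at -0.69.

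In complex I, 4 of the 37 nuclear genes passed in limma, which is 10.8% beside 11.5% of all genes, and all 4 were lower, each an accessory subunit. NDUFB10, of the membrane arm, was at 1603, 1563 and 1525 in the shControl libraries and 1220.0, 1351 and 1144 in the shZDHHC20 libraries. Every shZDHHC20 library lay below every control, with a log2 fold change of -0.34 ± 0.067 SE, adjusted p = 0.00519. NDUFA12, of the peripheral arm, was at 659.8, 703 and 644 in the shControl libraries and 547, 595 and 514 in the shZDHHC20 libraries, again without overlap, with a log2 fold change of -0.28 ± 0.078 SE, adjusted p = 0.0346 in limma. NDUFB2, of the membrane arm, was at 953, 903 and 867 in the shControl libraries and 776, 805 and 712 in the shZDHHC20 libraries, also apart, with a log2 fold change of -0.25 ± 0.071 SE, adjusted p = 0.0378 in limma. In the annotation 83.4% of the exon bases of NDUFB2 are shared with genes on the opposite strand. Whether the counting used strand is not given in the sources used here. NDUFS6, a zinc-binding subunit of the NADH-oxidizing end, was at 1063, 967 and 956 in the shControl libraries and 606, 970.1 and 665 in the shZDHHC20 libraries. Here replicates 1 and 3 were far below the controls and replicate 2 lay among them, so the log2 fold change of -0.44 ± 0.13 SE, adjusted p = 0.0462 in limma became -0.65 with an adjusted p of 4.57e-05 without replicate 2.

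Of the nuclear subunits of complex I that carry the flavin or iron-sulfur clusters or lie next to them, those named here did not pass with all libraries. NDUFS1 was at 3617 ± 65.9 in shControl and 3491 ± 192 in shZDHHC20 (SD, n = 3), NDUFS3 at 989 ± 29.8 in shControl and 1025 ± 75.4 in shZDHHC20 and NDUFS8 at 2227 ± 50.2 in shControl and 2220.1 ± 118 in shZDHHC20, with log2 fold changes from -0.052 to 0.050. NDUFV1, the flavin-binding subunit, was at 3152, 3118 and 3126 in the shControl libraries and 2756, 3448 and 2652 in the shZDHHC20 libraries, with replicate 2 above and replicates 1 and 3 below all controls. Its log2 fold change of -0.10 had an adjusted p of 0.521, and without replicate 2 it was -0.21 with an adjusted p of 0.00101 in limma. Over the 37 genes 25 had a log2 fold change below 0, with a median of -0.060. Without replicate 2 it was 31 of 37 with a median of -0.12, and 12 passed, all of them downward. That is 32.4%, beside 19.2% of all genes in either direction, a share not matched for level. The highest log2 fold change was that of NDUFA7 at 0.72, which rests on 3.03 to 14.1 normalized counts per library. Of the genes next to the threshold with all libraries, NDUFA10 had a log2 fold change of -0.14 ± 0.051 SE, adjusted p = 0.0951 in limma, and -0.12 with an adjusted p of 0.0453 without replicate 2. NDUFA4, named for complex I but since assigned to complex IV, was at 2688 ± 78.4 in shControl and 2802 ± 201 in shZDHHC20.

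Complex II, whose 4 subunits are all nuclear, had no gene that passed. SDHA, the flavoprotein that oxidizes succinate, was at 2511, 2469 and 2460.0 in the shControl libraries and 2747, 2605 and 2508 in the shZDHHC20 libraries. SDHB, the iron-sulfur subunit, was at 1950.2, 1921 and 1820.2 in the shControl libraries and 1961, 2035 and 2117 in the shZDHHC20 libraries. The membrane anchors SDHC and SDHD had log2 fold changes of 0.091 ± 0.060 SE and -0.089 ± 0.060 SE. Adjusted p values of the 4 ran from 0.287 to 0.418 in limma, 0 of the 4 had an unadjusted p under 0.05, and edgeR and DESeq2 called 0 of them. The sum of the complex was 8696, 8744 and 8569 in shControl and 8884, 9239 and 8882 in shZDHHC20, so that all 3 shZDHHC20 sums were the higher ones, by less than 10% of the control mean.

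In complex III the 2 nuclear subunits that hold redox centres moved in opposite directions. They were the 2 of 10 nuclear genes that passed in limma. That is 20%, beside 11.5% of all genes and 21.7% of genes averaging 100 or more. CYC1, cytochrome c1, was at 3209, 2845 and 3182 in the shControl libraries and 2456, 2882 and 2411 in the shZDHHC20 libraries. Replicates 1 and 3 lay below all controls and replicate 2 within their range, and limma gave a log2 fold change of -0.26 ± 0.072 SE, adjusted p = 0.0349, and -0.34 with an adjusted p of 6.27e-04 without replicate 2. UQCRFS1, the Rieske iron-sulfur protein, was at 3391, 3381 and 3424 in the shControl libraries and 3807, 3900.2 and 3657 in the shZDHHC20 libraries. All shZDHHC20 libraries lay above all controls, with a log2 fold change of 0.16 ± 0.047 SE, adjusted p = 0.0494 in limma. The core proteins did not pass, with UQCRC1 at 4110.4 ± 86.8 in shControl and 4008 ± 230.5 in shZDHHC20 (SD, n = 3). UQCRC2 was at 4211 ± 55.0 in shControl and 4489 ± 361 in shZDHHC20, and its log2 fold change of 0.089 became 0.15 with an adjusted p of 0.00533 without replicate 2 in limma. UQCRH, the hinge protein, was at 3039 ± 70.5 in shControl and 2978 ± 483 in shZDHHC20, with a log2 fold change of -0.041 that became -0.17 with an adjusted p of 0.0068 without replicate 2 in limma. UQCRHL, a near-identical copy of it whose reads cannot be told apart with certainty, was at 199 ± 9.73 in shControl and 176 ± 49.4 in shZDHHC20. The remaining 4 genes had log2 fold changes from -0.23 to -0.033.

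Complex IV held the subunit gene with the smallest adjusted p of the 94. COX7A2L, which links complexes III and IV into supercomplexes, was at 3065, 2978 and 2954 in the shControl libraries and 1864, 1860.4 and 1858 in the shZDHHC20 libraries. The 3 shZDHHC20 values differed from each other by less than 1%, all lay far below the controls, and replicate 2 did not stand apart. In limma it had a log2 fold change of -0.69 ± 0.049 SE, adjusted p = 3.35e-06, and it passed in all 17 settings tried. COX8A, a small subunit of the membrane part, was at 1821, 1673 and 1740.1 in the shControl libraries and 1322, 1492 and 1234 in the shZDHHC20 libraries, without overlap and with a log2 fold change of -0.37 ± 0.071 SE, adjusted p = 0.00411. In the annotation 34.5% of the exon bases of COX8A are shared with another gene on the same strand. COX7B, another small membrane subunit, was higher, at 1295, 1584 and 1506 in the shControl libraries and 1750.0, 1724 and 1699 in the shZDHHC20 libraries, with a log2 fold change of 0.24 ± 0.071 SE, adjusted p = 0.0425 in limma. In limma 3 of the 13 nuclear genes of complex IV passed. That is 23.1%, beside 11.5% of all genes and 21.7% of genes averaging 100 or more. The remaining 10 did not pass, among them COX5A at 2225 ± 18.1 in shControl and 2109 ± 134 in shZDHHC20 (SD, n = 3). COX5B was at 1959, 1877 and 1973 in the shControl libraries and 1704, 2485 and 1589.8 in the shZDHHC20 libraries, with replicate 2 the highest and replicates 1 and 3 the lowest of the 6 libraries, and its log2 fold change went from -0.036 with all libraries to -0.23 with an adjusted p of 0.00346 without replicate 2 in limma.

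The isoform families of complex IV were read side by side. COX4I1, the main form of its family, was at 2816 ± 122 in shControl and 2767 ± 265 in shZDHHC20 (SD, n = 3). Of the COX6B pair, COX6B1 was at 3354 ± 70.3 in shControl and 3310.3 ± 131 in shZDHHC20 and COX6B2, known from testis, at 39.2 ± 11.3 in shControl and 53.8 ± 1.41 in shZDHHC20. Of the COX7A family, COX7A2 was at 2273, 2287 and 2189 in the shControl libraries and 2375, 2977 and 2522 in the shZDHHC20 libraries, apart between groups but at an adjusted p of 0.077 in limma, in the opposite direction to COX7A2L. In edgeR COX7A2 passed, with an adjusted p of 0.0481. COX7A1, the form of heart and skeletal muscle, reached 7.37 ± 2.91 in shControl and 10.1 ± 3.09 in shZDHHC20. COX6A1 was at 567 ± 11.8 in shControl and 514 ± 69.8 in shZDHHC20, and its log2 fold change went from -0.15 to -0.26 with an adjusted p of 0.0134 without replicate 2 in limma.

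In complex V, 4 of the 17 nuclear genes passed in limma, 2 lower and 2 higher. That is 23.5%, beside 11.5% of all genes and 21.7% of genes averaging 100 or more. ATP5MC1, one of the genes for subunit c of the proton-driven ring, was at 2587, 2513 and 2476 in the shControl libraries and 1988, 2148 and 2009 in the shZDHHC20 libraries. The groups did not overlap, with a log2 fold change of -0.30 ± 0.053 SE, adjusted p = 0.00238. The other two subunit c genes encode the same mature protein with other import sequences. ATP5MC2 was at 3429.7 ± 171 in shControl and 3166 ± 238 in shZDHHC20 (SD, n = 3) and ATP5MC3 at 2543 ± 30.8 in shControl and 2472 ± 280.4 in shZDHHC20, and neither passed, with adjusted p values of 0.276 and 0.746 in limma. Without replicate 2 ATP5MC3 passed, its log2 fold change going from -0.047 to -0.14 with an adjusted p of 0.0149, lower as for ATP5MC1. ATP5F1D, the delta subunit of the central stalk, was at 2217, 2042 and 2167 in the shControl libraries and 1851, 1860.4 and 1846 in the shZDHHC20 libraries, below the controls throughout, with a log2 fold change of -0.21 ± 0.053 SE, adjusted p = 0.0222.

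The 2 that rose are small membrane subunits. ATP5MG, subunit g, was at 414, 431 and 394 in the shControl libraries and 531, 559.7 and 515 in the shZDHHC20 libraries, without overlap, with a log2 fold change of 0.37 ± 0.078 SE, adjusted p = 0.00729 in limma. ATP5MK, also known as DAPIT, was at 1124, 1293 and 1206 in the shControl libraries and 1394, 1501 and 1359 in the shZDHHC20 libraries, without overlap, with a log2 fold change of 0.23 ± 0.067 SE, adjusted p = 0.0411 in limma. In the annotation ATP5MG shares 17.6% of its exon bases with other genes on the same strand and 15.9% on the opposite strand. For ATP5MK these shares are 16.1% and 2.8%. The alpha and beta subunits of the catalytic head did not pass. ATP5F1B, the beta subunit and the most abundant nuclear member, was at 19646, 19553 and 19757 in the shControl libraries and 19381, 19921 and 19802 in the shZDHHC20 libraries, and ATP5F1A, the alpha subunit, at 6949 ± 27.4 in shControl and 6549 ± 313 in shZDHHC20 (SD, n = 3). The SE of the ATP5F1B log2 fold change of 0.0035 was 0.038. The stalk subunits ATP5PF and ATP5PB were apart between groups, both higher in shZDHHC20, with adjusted p values of 0.09 and 0.218 in limma, and without replicate 2 ATP5PB was at 0.14 with an adjusted p of 0.0498. Over the 13 genes of complex V that did not pass, log2 fold changes ran from -0.19 for ATP5MF to 0.18 for ATP5PF, and ATP5MF was at -0.39 with an adjusted p of 0.00623 without replicate 2.

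**Figure D3:**
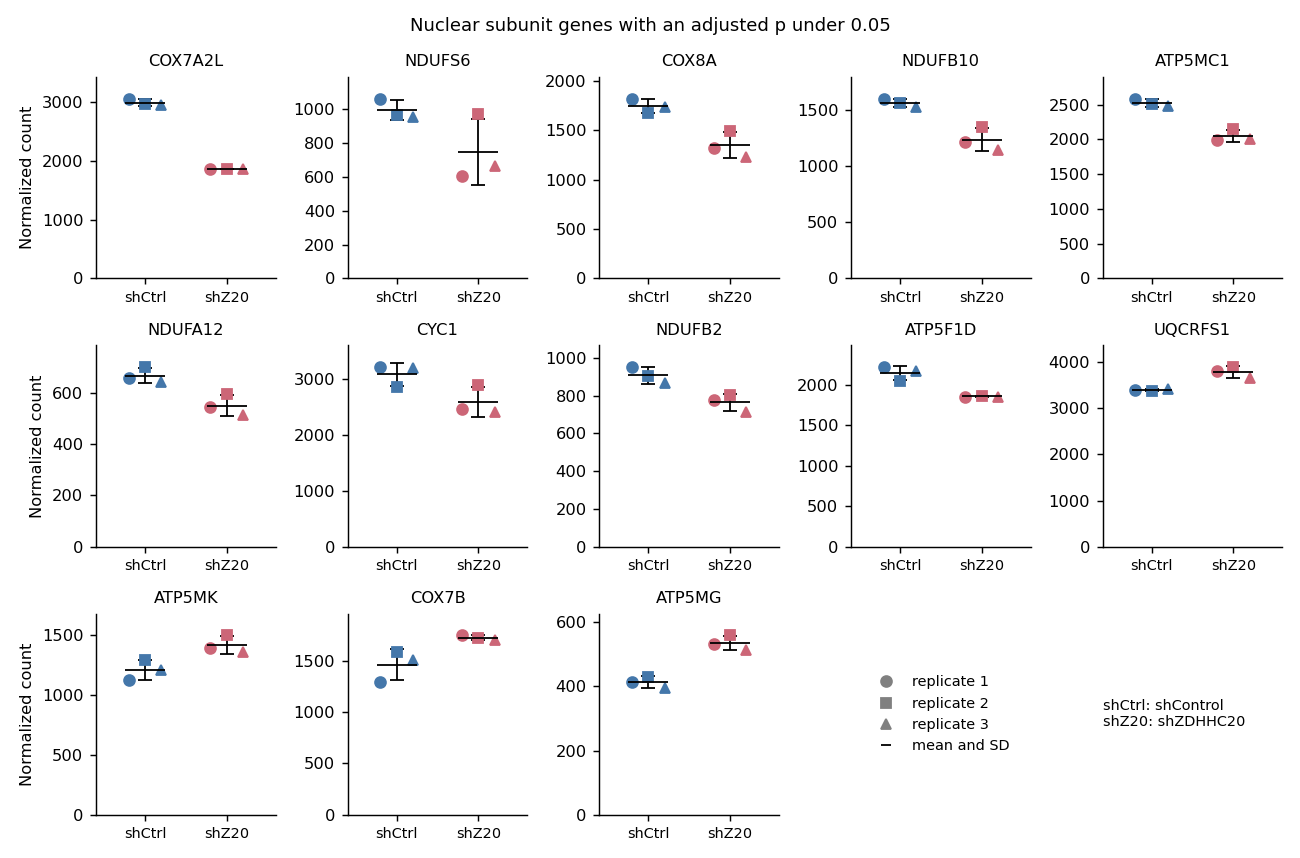
Normalized counts of the 13 nuclear subunit genes with an adjusted p under 0.05, 1 panel per gene, axes from 0, with 1 point per library and black marks for the mean and SD (n = 3 per group, shCtrl is shControl and shZ20 is shZDHHC20). COX7A2L shows the widest gap between the groups, and in NDUFS6 and CYC1 the shZDHHC20 replicate 2 square lies among the controls.

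To compare levels between genes, normalized counts were divided by the length of the principal transcript in kilobases. In shControl the mitochondrial messages had a median of 45212 per kilobase and the nuclear ones a median of 991, a ratio of 45.6. With the union of all annotated exons as length the ratio was 91.8, since nuclear genes have many annotated exons and mitochondrial genes 1. Within the mitochondrial genes MT-CO1 stood highest per kilobase at 160020.0 ± 1581 (SD, n = 3), followed by MT-CO2 at 134670.0 ± 3158, which lies beyond the spread of both. MT-ND5, at 33543 ± 1065, and MT-ND2, at 34753 ± 932, were next to each other above MT-ATP8 and did not differ beyond their spread. MT-ND6, the only one of them encoded on the other strand of the chromosome, was at 40665 ± 574.

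Nuclear medians per kilobase in shControl were 711 for complex I, 1159 for complex II, 1294 for complex III, 1755 for complex IV and 1194 for complex V. ATP5F1B was highest at 10686 ± 55.6, ahead of UQCRH at 5031 ± 117 and COX6B1 at 5028 ± 105, and the last 2 did not differ beyond their spread. Some subunits of 1 complex were listed at very unequal levels. The core subunit NDUFV2 was at 17.7 ± 5.96 per kilobase, beside its partner NDUFV1 at 1239 ± 7.04, and NDUFA13 and NDUFA7 were at 28.1 ± 4.62 and 10.0 ± 5.00. These 3 belong to 7 nuclear members that share over 40% of their exon bases with another gene annotated on the same strand, and those 7 had a median of 178 per kilobase against 1053 for the 61 that share none. The other 4 of the 7 are NDUFB8 at 178, NDUFA11 at 244, ATP5PO at 819 and ATP5MF at 2620 per kilobase in shControl. Not all of the 7 were therefore low. Whether the counting left out reads that fit both genes was not tested, and levels of these 7 are uncertain.

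Promoter sequence was read from RefSeq on GRCh38.p14 for the nuclear members that matched by symbol, 65 of 81 genes with 78 windows of 200 bases before the start. As background, NRF1, ETS factors such as GABPA, YY1 and the estrogen-related receptors (ERR) are the nuclear regulators known for respiratory genes. Each motif was searched on both strands. The NRF1 motif GCGCANGCG stood in 24.4% of the members' windows, against 6.08% of all 35116 promoter windows of the same length. In the same order, the ETS motif CCGGAAG stood in 24.4% against 7.71%, the YY1 motif AAGATGG in 6.41% against 2.85%, the ERR motif AAGGTCA in 8.97% against 2.74% and the CCAAT box in 30.8% against 28.0%. These shares describe the genes and use no expression value. Of 8 windows of members that fell 4 held a CCAAT box, 2 the NRF1 motif, 1 the ETS motif and 0 the YY1 or ERR motif, and of 4 windows of members that rose 1 held each motif. A match is a run of letters, not a site shown to be bound.

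The promoters of the 3 nuclear members that fell with the smallest adjusted p, and of the 1 that rose with the smallest, are shown, 5′ to 3′ on the strand of the gene, with matches to the motifs above in capitals.

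COX7A2L promoter, chr2:42361218-42361417 (- strand): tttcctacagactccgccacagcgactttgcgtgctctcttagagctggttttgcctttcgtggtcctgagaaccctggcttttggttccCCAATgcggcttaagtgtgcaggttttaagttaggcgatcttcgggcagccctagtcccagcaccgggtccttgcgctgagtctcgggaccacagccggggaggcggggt

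ATP5MC1 promoter, chr17:48892587-48892786 (+ strand): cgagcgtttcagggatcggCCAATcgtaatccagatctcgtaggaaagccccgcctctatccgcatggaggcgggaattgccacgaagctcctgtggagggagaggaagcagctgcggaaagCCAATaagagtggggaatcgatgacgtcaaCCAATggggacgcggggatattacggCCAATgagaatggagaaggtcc

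COX8A promoter, chr11:63974420-63974619 (+ strand): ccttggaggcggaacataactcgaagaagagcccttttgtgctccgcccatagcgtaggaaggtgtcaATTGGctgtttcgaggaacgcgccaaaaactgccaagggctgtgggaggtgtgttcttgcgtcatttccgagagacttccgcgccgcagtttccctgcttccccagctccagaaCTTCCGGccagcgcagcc

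ATP5MG promoter, chr11:118401406-118401605 (+ strand): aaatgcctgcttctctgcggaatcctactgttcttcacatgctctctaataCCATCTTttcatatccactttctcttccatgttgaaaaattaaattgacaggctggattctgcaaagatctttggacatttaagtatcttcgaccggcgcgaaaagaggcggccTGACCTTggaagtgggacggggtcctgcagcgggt

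RefSeq lists 2 windows for COX7A2L, of which 1 is shown, and that window has a single CCAAT box. ATP5MC1 has 4. COX8A has a CCAAT box in reverse orientation (ATTGG) and, nearer the start, an ETS motif in reverse orientation. ATP5MG, which rose, has a YY1 motif and an ERR motif, both in reverse orientation, and no CCAAT box. None of the motifs was found in the window of NDUFB10, which fell, or of COX7B, which rose.

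The genes that build, supply and regulate the chain were followed from lists. Of 57 assembly factors 7 passed in limma, all downward, which is 12.3%. Over all genes 11.5% were called in either direction and 6.84% downward. Most of these factors averaged 100 or more, a level at which 21.7% of genes were called in either direction. For complex I 1 of 17 fell, NDUFAF4 at -0.62. For complex III 2 of 6 fell, BCS1L at -0.30, which inserts the Rieske protein, and UQCC2 at -0.33. For complex IV 3 of 25 fell: COX10, of heme a synthesis, at -0.44, COX18 at -0.62 and the copper chaperone SCO1 at -0.23. For complex V 1 of 5 fell, ATPAF1 at -0.30, and for complex II 0 of 4 passed in limma or edgeR, 1 of them with an unadjusted p under 0.05, SDHAF3 at 0.24. These are log2 fold changes with adjusted p values of 0.00146 to 0.0461 in limma, and SDHAF3 passed upward when replicate 2 was left out, at 0.32 with an adjusted p of 0.0408. The median over the lists ran from -0.19 for complex III to 0.052 for complex II.

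Among 20 genes of mitochondrial DNA maintenance and transcription, 2 fell and 1 rose. TFAM, which packages mitochondrial DNA and starts its transcription, was at 1681, 1664 and 1727 in the shControl libraries and 1233, 1039 and 1309 in the shZDHHC20 libraries, below every control, with a log2 fold change of -0.51 ± 0.077 SE, adjusted p = 8.41e-04 in limma. TWNK, the mitochondrial helicase, fell at -0.31 and TK2 rose at 0.25. Of 18 genes of mitochondrial RNA processing and stability 1 passed, FASTKD5, which takes part in the maturation of mitochondrial messages that lack flanking tRNAs. It was at 556, 532 and 563 in the shControl libraries and 814, 755 and 783 in the shZDHHC20 libraries, with a log2 fold change of 0.51 ± 0.069 SE, adjusted p = 3.63e-04 in limma. Of 12 nuclear regulators, GABPA rose at 0.26 (adjusted p = 0.0255) and ESRRA fell at -0.53 (adjusted p = 0.025, limma), with replicate 2 of ESRRA at 1268 beside 825 and 777 in replicates 1 and 3. GABPA overlaps ATP5PF on the opposite strand in the annotation, and 23.5% of the exon bases of ATP5PF are shared with genes on that strand.

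The mobile carrier CYCS, cytochrome c, rose at 0.21, and with COQ10B at 0.30 it was 1 of 2 that passed among 10 other respiratory proteins, both upward in limma. Of 22 genes of mitochondrial protein import 2 fell, TIMM44 at -0.37 and TOMM20 at -0.26, and TOMM22 rose at 0.32. Of 9 reference genes of the outer membrane and matrix 1 fell, HSPE1 at -0.30. Of 18 genes of the tricarboxylic acid cycle and pyruvate entry 2 fell, DLAT at -0.43 and MDH2 at -0.27, and 1 rose. In the glycolysis list, written with earlier results of these data known, 14 of 23 fell and none rose. That is 60.9%, beside 6.84% of all genes called lower. Among genes averaging 100 or more, 21.7% were called in either direction. The median of the list was -0.27 beside -0.036 over the 81 nuclear subunits, a difference that was not tested. Its smallest adjusted p values belonged to HK2 at -0.76, ALDOC at -1.03 and PFKP at -0.38, and LDHA, which makes lactate, was at -0.27. Without replicate 2 the counts were 17 of 23 lower for glycolysis and 23 of 81 lower with 6 higher for the nuclear subunits. MYC, which the study followed, fell at -0.59 with an adjusted p of 2.79e-05 in limma.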

How the data were processed

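RNA-seq libraries of PANC-1 cells, 3 shControl and 3 shZDHHC20, were analysed. Per the labels, RNA was taken with Trizol, libraries were made with a directional kit, and the build was hg19. The aligner, the counter and whether strand was used were not given in the sources used here. The authors deposited a table named as FPKM, but all its values are whole multiples, within 0.1, of 1 step per library, so they are a normalized signal: gene counts divided by a size factor, not by length. The design had been written for FPKM and its test on a log scale was kept. Columns named siZDHHC20 and NC were matched to the sample titles by group and number.

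Names, gene types, lengths and overlaps came from GENCODE 29 (GRCh38), with all 27394 identifiers matched, and promoters from RefSeq (GRCh38.p14). No coordinates were converted. Members and lists were chosen with earlier results of these data known. Genes with a mean of at least 1 were tested on log2(value + 0.1) with limma 3.58.1 (trended eBayes, two-sided) in R 4.3.3, with Benjamini-Hochberg adjustment over all 22189. For genes near 0 the log2 fold changes on this scale can differ widely from those on reads. The mitochondrial tRNA gene MT-TL2 was at -4.08 in limma and -1.28 in edgeR. Named genes were the mitochondrial members, the 5 nuclear members per complex with the smallest adjusted p and the 1 with the highest mean, all members that passed, isoform families, and up to 3 genes per list. Genes named beyond these (NDUFS3, NDUFS8, NDUFV1, NDUFV2, NDUFA4, NDUFA7, NDUFA13, COX5A, COX5B, UQCRC1, UQCRH, UQCRHL, ATP5F1A, ATP5PB, the genes with overlapping exons, LDHA, MYC, the rRNA and tRNA genes and the pseudogenes) were chosen after their values were seen. Pseudogene copies share reads with many subunit genes. Alternatives were pseudocounts of 1 and 0.01, no filter or a mean of at least 5, other scalings, no trend, a replicate block, leaving out each library, edgeR 4.0.16 and DESeq2 1.42.0 on recovered reads. The fit was tested on simulated data. Some single-gene results are not reported here.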

Additional observations from a re-analysis of the deposited data

How the results depend on the processing

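With all 6 libraries 2541 genes were called, 15 of them members, and 36 were genes of the lists around the chain. Without the mean-variance trend these counts were 351, 1 and 3. Leaving out 1 library gave 1036 to 4268 genes, 4 to 35 members and 16 to 67 list genes, the highest each time without shZDHHC20 replicate 2. Quantile normalization called 9 members, and the replicate block called 9. The numbers were not shown to pair the libraries, since correlations of same-numbered deviations lay between -0.0562 and -0.0215, and the block changed no other count by over 1.5 times. The ratio of mitochondrial to nuclear levels per kilobase moved from 45.6 to 91.8 with the union of exons. Over 86 named genes, 1235 values kept direction and side of the threshold, 181 lost the call, 26 gained one and 20 turned in direction. The cause was not tested.

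Leaving out 1 library, log2 fold changes of genes named by the rule that turned ran from -0.00451 to 0.0153 for ATP5F1B, from -0.103 to 0.0306 for COX4I1, from -0.0415 to 0.013 for COX6B1, from -0.333 to 1.09 for MT-ATP8, from -0.174 to 0.0844 for MT-CO1, from -0.338 to 0.0129 for MT-CO3, from -0.0683 to 0.176 for MT-ND4L, from -0.154 to 0.116 for MT-ND5, from -0.158 to 0.033 for SDHAF1 and from -0.00624 to 0.166 for SDHAF2. Of the other members whose groups are compared in the text, COX5B ran from -0.234 to 0.0881, UQCRH from -0.17 to 0.0398, UQCRHL from -0.348 to 0.045, UQCRC1 from -0.0785 to 0.00453, NDUFS3 from -0.0037 to 0.102, NDUFS8 from -0.0458 to 0.0305 and NDUFA4 from -0.00067 to 0.0879. Under quantile normalization COX6B1 turned to 0.012 and MT-CO1 to 0.067. Scaled to genes outside the mitochondrial chromosome, COX4I1 turned to 0.0075 and COX6B1 to 0.017. At this depth COX7A1 and NDUFA7 rest on a few reads, and differences in them were not detectable.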
